A study of Mus musculus with 6 samples.

Results

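The vascular connexins *Gja1*, *Gja4*, *Gja5* and *Gjc1* were examined in coronary endothelial cells (ECs) with and without *Wt1*. These 4 genes were taken by their symbols from the 55416 genes of the deposited table, which holds 20 connexin genes in all. Connexins are membrane proteins that assemble into channels, and channels of adjoining cells dock to form gap junctions through which ions and small molecules pass. In blood vessels they couple ECs to each other and to the smooth muscle cells around them, and *Gja4* and *Gja5*, which encode connexin 37 and connexin 40, are widely used as genes of arterial endothelium. *Gja1* encodes connexin 43, the most widespread member of the family, and *Gjc1* encodes connexin 45, which is found early in heart development and in mural cells.

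RNA-Seq had been performed on mGFP+ cells sorted by FACS from E15.5 mouse heart ventricles, with 3 libraries from *ControlΔEC* embryos, Pdgfb(CreERT2/+); Wt1(+/+); R26(mTmG/+), and 3 from *Wt1KOΔEC* embryos, Pdgfb(CreERT2/+); Wt1(loxP/loxP); R26(mTmG/+). All embryos carried 1 copy of the *Pdgfb*-driven, tamoxifen-dependent Cre and of the mTmG reporter, which turns on membrane GFP where Cre has recombined, and all dams were gavaged with 75 mg/kg of tamoxifen over E11.5 to 13.5. The sorted cells are therefore those in which the *Pdgfb* driver was active during tamoxifen treatment, and a cell with a recombined reporter need not have recombined both *Wt1* alleles. Both genotypes can arise in 1 litter, and the labels do not tie libraries to litters or say how many embryos each pools, so p-values measure the spread between libraries.

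The libraries held 26037324 to 44779020 counts, at which 3 counts make 0.0608 to 0.119 CPM (counts scaled to library totals after TMM adjustment for composition). This floor covers counting error only, because cDNA was amplified without molecular identifiers. The targeted gene *Wt1* was at 145, 109.6 and 149 CPM in *ControlΔEC* and at 14.0, 18.4 and 21.3 CPM in *Wt1KOΔEC* replicates 1, 2 and 3 (log2 fold change -2.91, SE 0.22, adjusted p = 0.00319, edgeR quasi-likelihood). The 10 endothelial markers, led by *Pecam1*, summed to 6209 to 7512 CPM in *ControlΔEC* and 6018 to 6943 CPM in *Wt1KOΔEC*, and every gene of the 9 marker lists had counts. *ControlΔEC* replicate 2 stood apart. Its 5 macrophage markers summed to 551 CPM, against 272 and 182 CPM in replicates 1 and 3, and its 5 erythroid markers to 11107 CPM, against 6884 and 5181 CPM. Its 10 mural cell markers summed to 188 CPM, against 377 and 378 CPM. Results that rest on this library are also given without it. In RNA from sorted populations, fewer cells of a type and less RNA per cell cannot be told apart.

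None of the vascular connexins passed the test between genotypes. All 4 were among the 16296 genes tested (at least 10 counts in at least 2 libraries), and 0 of 4 had an adjusted p under 0.05 with a log2 fold change beyond 0.58 in either direction, where 0.0736% of all genes tested did (0.0491% higher and 0.0245% lower in *Wt1KOΔEC*). The same held at an unadjusted p under 0.05, with 0 of 4 connexins and 13.1% of all genes, and with DESeq2 in place of edgeR, with 0 of 4 connexins and 4.83% of genes. *Gja1* was higher in every *Wt1KOΔEC* library than in any *ControlΔEC* library, making 1 of 4 connexins, and 10.3% of all genes were ordered in this way, while 0 of 4 connexins and 8.97% of all genes were lower in every *Wt1KOΔEC* library. *Gja4*, *Gja5* and *Gjc1* had negative fold changes and overlapping libraries, and 52% of all genes had a negative fold change. The median log2 fold change of the 4 connexins was -0.40, beside -0.03 over all genes tested.

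**Figure D1:**
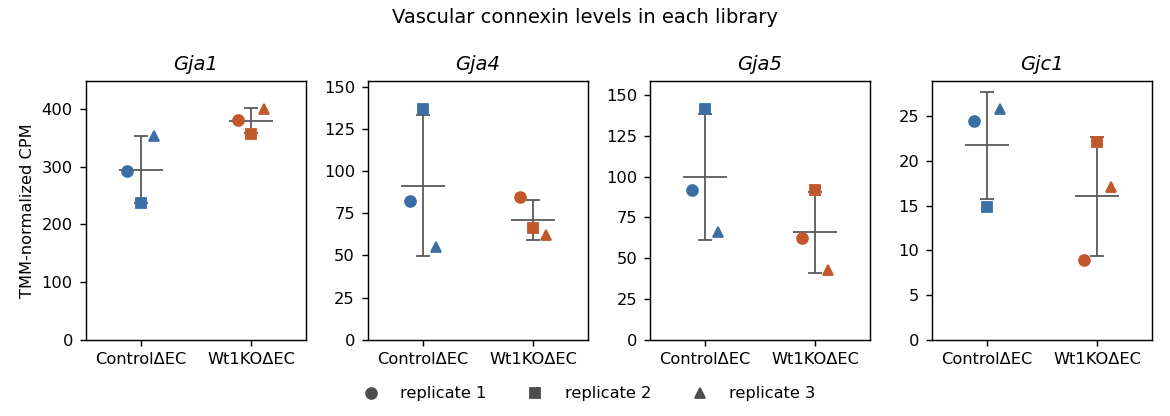
TMM-normalized CPM (linear axes from 0, 1 panel per gene) of the vascular connexins in 3 *ControlΔEC* and 3 *Wt1KOΔEC* libraries, with marker shape for the replicate number and bars for the mean ± SD. The *Gja1* libraries of the genotypes do not overlap, and *ControlΔEC* replicate 2 (square) is the highest control for *Gja4* and *Gja5* and the lowest for *Gja1* and *Gjc1*.

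*Gja1* (ENSMUSG00000050953.11; chromosome 10, 56253241 to 56278609, plus strand, GRCm39) was the connexin with the most counts. It was at 293, 237 and 354 CPM in *ControlΔEC* replicates 1, 2 and 3. It was at 381, 358 and 401 CPM in *Wt1KOΔEC* replicates 1, 2 and 3. The lowest *Wt1KOΔEC* library lay just above the highest *ControlΔEC* library, so the genotypes were separated by less than the spread among controls. Mean levels were 295 ± 58.2 CPM and 379.7 ± 21.6 CPM (SD, n = 3), a 1.29-fold difference with a 95% interval of 0.981 to 1.69. Its log2 fold change was 0.37 (SE 0.17, adjusted p = 0.420, edgeR quasi-likelihood), and DESeq2 gave 0.36 (adjusted p = 0.261). A two-sided exact permutation test over the libraries gave p = 0.1, the smallest that 3 against 3 allow. The difference was therefore not significant, and its interval reached up to 1.69-fold. Without *ControlΔEC* replicate 2, the lowest library, the log2 fold change was 0.23 (adjusted p = 0.568). Leaving out the lowest control could not make the libraries overlap. Across the libraries *Gja1* varied by 19.8% of its mean in *ControlΔEC* and 5.69% in *Wt1KOΔEC* (coefficient of variation). Markers of other cells were also higher in every *Wt1KOΔEC* library. The 6 fibroblast markers, with *Col3a1* at the highest level, summed to 585 to 866 CPM in *ControlΔEC* and 1155 to 1364 CPM in *Wt1KOΔEC*. Of these genes 4 of 6 were separated in that direction, beside 10.3% of all genes. *Col1a1*, a fibrillar collagen gene, was called (log2 fold change 1.34, adjusted p = 0.0441, edgeR quasi-likelihood). The study counts *Col1a1*, *Col3a1* and *Dcn* of this list among venous markers. The 7 epicardial markers, with *Aldh1a2* at the highest level, summed to 11.496 to 19.6 CPM and 20.0 to 53.4 CPM. Of these, 4 of 7 genes were separated in the same direction, beside the same 10.3% of all genes. *Aldh1a2* was not among these 4, at 7.05 ± 5.78 CPM in *ControlΔEC* and 6.80 ± 2.76 CPM in *Wt1KOΔEC* (SD, n = 3; log2 fold change -0.05). *Gja1* is a gene of fibroblasts and epicardium too, and the part of these cells in its level was not tested.

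*Gja5* (ENSMUSG00000057123.15; chromosome 3, 96812009 to 96984732, plus strand) had the largest negative fold change of the connexins. It was at 91.6, 141.5 and 65.9 CPM in *ControlΔEC* replicates 1, 2 and 3. It was at 62.6, 91.8 and 42.9 CPM in *Wt1KOΔEC* replicates 1, 2 and 3. *Wt1KOΔEC* replicate 2 was as high as *ControlΔEC* replicate 1, and *ControlΔEC* replicate 3 lay among the *Wt1KOΔEC* libraries. Mean levels were 99.7 ± 38.4 CPM and 65.8 ± 24.6 CPM (SD, n = 3), a ratio of 0.660 with a 95% interval of 0.394 to 1.11. The log2 fold change was -0.60 (SE 0.33, adjusted p = 0.497, edgeR quasi-likelihood; exact permutation p = 0.3), and -0.61 with DESeq2 (adjusted p = 0.372). The fold change was past the limit of 0.58 but the test was not passed, and the interval reached down to a ratio of 0.394. *ControlΔEC* replicate 2 was 1.80 times the mean of the other controls, and without it the log2 fold change was -0.26 (adjusted p = 0.800). Exons of *Gja5* share 165 bases (2.77% of its merged exonic length) with *Gpr89* on the opposite strand, and the library protocol does not keep strand.

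*Gja4* (ENSMUSG00000050234.8; chromosome 4, 127205214 to 127207851, minus strand) showed no direction that was independent of 1 control. It was at 82.1, 137 and 55.2 CPM in *ControlΔEC* replicates 1, 2 and 3. It was at 84.5, 66.3 and 62.0 CPM in *Wt1KOΔEC* replicates 1, 2 and 3. All *Wt1KOΔEC* libraries lay between the lowest and highest controls. Mean levels were 91.4 ± 41.7 CPM and 70.9 ± 11.9 CPM (SD, n = 3), a ratio of 0.775 with a 95% interval of 0.483 to 1.24. The log2 fold change was -0.37 (SE 0.30, adjusted p = 0.698, edgeR quasi-likelihood; exact permutation p = 0.7), and DESeq2 gave -0.37 (adjusted p = 0.640). *ControlΔEC* replicate 2 was 2.00 times the mean of the other controls, and without it the log2 fold change turned to 0.048 (adjusted p = 0.966). In the GENCODE vM39 annotation, 686 bases (31.8%) of the merged exons of *Gja4* also lie in the opposite-strand gene *Gm69784*, which is not a row of the table, so reads of that gene cannot be told apart from those of *Gja4* here.

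**Figure D2:**
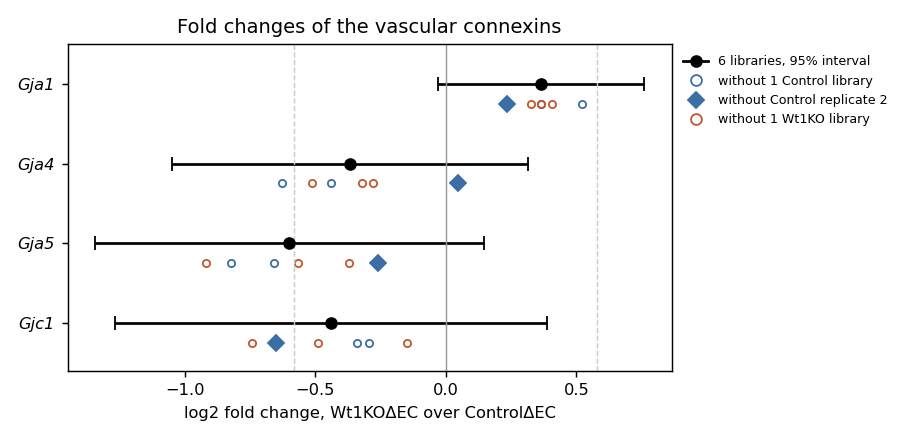
Log2 fold changes of *Wt1KOΔEC* over *ControlΔEC* (x axis) with 95% intervals from edgeR for 6 libraries (black), and below each the fold change with 1 library left out (open circles; filled diamond, without *ControlΔEC* replicate 2). Dashed lines mark the fold limit of 0.58. All 4 intervals include 0, and the diamond for *Gja4* lies at 0.048.

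*Gja4* and *Gja5* varied together among the controls. Both were highest in *ControlΔEC* replicate 2, then replicate 1, then replicate 3. The log2 ratio of *Gja5* to *Gja4* (CPM per kb of merged exonic length) was -1.31, -1.42 and -1.21 in *ControlΔEC* replicates 1, 2 and 3. It was -1.90, -0.998 and -1.998 in *Wt1KOΔEC* replicates 1, 2 and 3. The mean ratio was thus -1.31 ± 0.11 in *ControlΔEC* and -1.63 ± 0.55 in *Wt1KOΔEC* (SD, n = 3), with a wider spread in the latter and the control values inside its range. Levels of both genes in the controls followed the same order as the summed macrophage markers, of which 5 of 5 were highest in *ControlΔEC* replicate 2 among the controls, and as the erythroid markers, of which 4 of 5 were. The macrophage sum was 182 to 551 CPM in *ControlΔEC* and 162, 167.5 and 111 CPM in *Wt1KOΔEC* replicates 1, 2 and 3. The erythroid sum, led by the globin gene *Hba-a1*, was 5181 to 11107 CPM in *ControlΔEC* and 5863.5, 3534 and 5995 CPM in *Wt1KOΔEC* replicates 1, 2 and 3. Within *Wt1KOΔEC*, *Gja5* had the order of the macrophage sum and the reverse order of the erythroid sum, and *Gja4* had the order of neither. *Csf1r*, the macrophage colony-stimulating factor receptor, was at 153, 327 and 103 CPM in *ControlΔEC* replicates 1, 2 and 3. In *Wt1KOΔEC* replicates 1, 2 and 3 it was at 72.5, 92.1 and 57.1 CPM (log2 fold change -1.40, adjusted p = 0.217 with edgeR and 0.0102 with DESeq2). Of the 5 macrophage markers, 2 were lower in every *Wt1KOΔEC* library than in any control, beside 8.97% of all genes. At an unadjusted p under 0.05, 4 of the 5 were lower, beside 7.12% of all genes, and 0 passed the edgeR test. The part of these cells in the levels of *Gja4* and *Gja5* was not tested.

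The 250 bases upstream of the RefSeq starts of *Gja5* and *Gja4* are shown because these genes moved together among the controls. Both come from the RefSeq promoter table on GRCm39, which also holds *Gja1* and not *Gjc1*. They run 5′ to 3′ on the strand of the gene, and capitals mark matches to the motifs searched on both strands. *Gja5* lies at chr3:96939468-96939717 (plus strand, 56.4% GC) inside the gene as annotated, since some transcripts start farther upstream, and 7 of its bases are exonic. *Gja4* lies at chr4:127207833-127208082 (minus strand, 61.2% GC), 19 of its bases are annotated exon of *Gja4*, and 162 are exonic in *Gm69058* on the other strand.
*Gja5*: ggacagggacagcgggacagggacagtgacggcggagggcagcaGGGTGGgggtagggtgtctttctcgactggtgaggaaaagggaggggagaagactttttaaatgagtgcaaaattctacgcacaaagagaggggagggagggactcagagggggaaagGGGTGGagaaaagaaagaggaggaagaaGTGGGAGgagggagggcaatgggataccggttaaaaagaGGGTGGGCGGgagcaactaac
*Gja4*: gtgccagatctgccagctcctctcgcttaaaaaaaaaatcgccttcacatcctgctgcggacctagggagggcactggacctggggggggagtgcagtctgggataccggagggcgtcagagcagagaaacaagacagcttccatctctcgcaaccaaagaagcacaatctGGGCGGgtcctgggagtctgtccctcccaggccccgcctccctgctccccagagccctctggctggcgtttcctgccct
In the *Gja5* window the letters GTGGGAG stand 60 to 54 bases before the start, and 8.25% of the 32851 windows of the table hold them. The Krüppel-like factor core CCACCC, held by 28.1% of windows, is there on the opposite strand at 206 to 201, 88 to 83 and 21 to 16 bases, the last overlapping a GC box, GGGCGG, at 17 to 12 bases. The *Gja4* window holds a GC box at 79 to 74 bases, as do 32.7% of windows. The longer zinc finger sites GCGTGGGAG (0.405% of windows) and GCGTGGGCG (0.536%), the RBPJ site GTGGGAA (5.42%), the SOX core ACAATG (10.7%) and the AP-1 site TGANTCA (6.75%) had no match in either window. The motif shared by the windows was the GC box alone, and none of these matches was tested for binding.

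*Gjc1* (ENSMUSG00000034520.15; chromosome 11, 102686879 to 102710532, minus strand) had the lowest level of the vascular connexins. It was at 24.5, 14.9 and 25.8 CPM in *ControlΔEC* replicates 1, 2 and 3. It was at 8.91, 22.1 and 17.1 CPM in *Wt1KOΔEC* replicates 1, 2 and 3. The genotypes overlapped through *ControlΔEC* replicate 2, which was 0.590 times the mean of the other controls. Mean levels were 21.7 ± 5.99 CPM and 16.0 ± 6.65 CPM (SD, n = 3), a ratio of 0.738 with a 95% interval of 0.416 to 1.31. The log2 fold change was -0.44 (SE 0.37, adjusted p = 0.704, edgeR quasi-likelihood; exact permutation p = 0.4), and -0.44 with DESeq2 (adjusted p = 0.657). Without *ControlΔEC* replicate 2 every *Wt1KOΔEC* library was below both controls, and the log2 fold change was -0.65 (adjusted p = 0.501). Leaving out *Wt1KOΔEC* replicate 1, which had the lowest *Gjc1*, brought it to -0.15, so the size of the difference also rested on that library. Mural cell markers had a like order among the controls, at 377, 188 and 378 CPM in *ControlΔEC* replicates 1, 2 and 3, and 4 of the 9 tested were lower in every *Wt1KOΔEC* library than in any control, beside 8.97% of all genes. An unadjusted p under 0.05 was seen for 3 of the 9, all lower in *Wt1KOΔEC*, beside 7.12% of all genes. *Rgs5*, a pericyte gene, was at 165, 26.8 and 164 CPM in *ControlΔEC* and at 25.4, 17.9 and 19.4 CPM in *Wt1KOΔEC* replicates 1, 2 and 3. The study lists *Rgs5* and *Kcnj8*, both in the mural list here, among arterial genes. In *Wt1KOΔEC* the mural sum was at 156, 172 and 156 CPM in replicates 1, 2 and 3. The part of mural cells in the level of *Gjc1* was not tested. Cardiomyocyte markers, led by *Actc1*, mark another site of *Gjc1* and *Gja1* expression in the heart. They summed to 196 to 272 CPM in *ControlΔEC* and 166 to 357 CPM in *Wt1KOΔEC*, and the sums overlapped between genotypes. Of the 10 tested, 9 had positive log2 fold changes (median 0.22), where 52% of all genes had negative ones. In every *Wt1KOΔEC* library 1 of them was higher than in any control, beside 10.3% of all genes. The part of cardiomyocytes in the connexin levels was not tested.

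**Figure D3:**
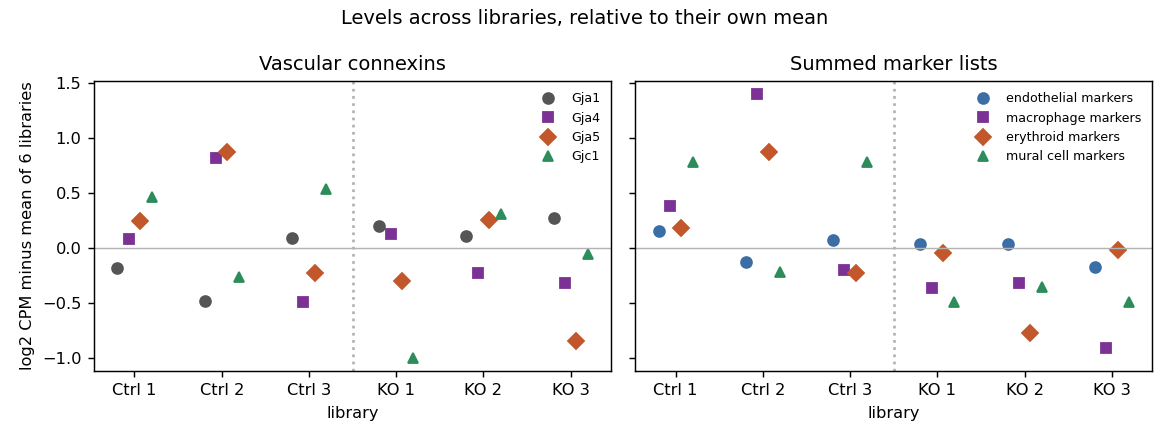
Levels in each library as log2 CPM minus the mean of the 6 libraries (y axis) for the vascular connexins (left) and for the summed markers of 4 cell types (right). *Gja4*, *Gja5*, macrophage and erythroid markers are highest in *ControlΔEC* replicate 2, where *Gjc1* and mural cell markers are below the other controls.

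Ratios between connexins within a library do not depend on library size. Of the 6 pairs, *Gja1* over *Gjc1* separated the genotypes. Its log2 ratio per kb was 3.26, 3.68 and 3.46 in *ControlΔEC* replicates 1, 2 and 3 and 5.10, 3.70 and 4.23 in *Wt1KOΔEC* replicates 1, 2 and 3. The means differed by 0.88, yet *Wt1KOΔEC* replicate 2 was only slightly above *ControlΔEC* replicate 2. The pair was singled out after its values were seen and has no test of its own. For *Gja5* over *Gja1*, whose fold changes had opposite signs, the mean log2 ratio was -0.57 ± 0.84 in *ControlΔEC* and -1.55 ± 0.63 in *Wt1KOΔEC* (SD, n = 3), with overlapping libraries.

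The order of the 4 connexins by level was taken per length, as CPM per kb. With the merged exons of each gene as its length, *Gja4* had 37.7 ± 13.8 CPM per kb over the 6 libraries (range 25.6 to 63.6). *Gja1* followed with 27.4 ± 4.95 CPM per kb (19.3 to 32.6). *Gja5* had 13.9 ± 5.76 CPM per kb (7.20 to 23.7). *Gjc1* came last with 1.91 ± 0.655 CPM per kb (0.902 to 2.62). Among the 16238 tested genes with a length, *Gja4* ranked 722 and *Gja1* 1036, within the highest 4.45% and 6.38%. *Gja5* ranked 2044 (12.6%) and *Gjc1* 8106 (49.9%). *Gja4* and *Gja1* did not differ beyond their spread, with a mean log2 ratio of 0.41 and *Gja4* higher in 4 of 6 libraries (two-sided exact sign-flip permutation test, p = 0.25). *Gja1* was above *Gja5* in 5 of 6 libraries by 1.06 on the log2 scale (exact permutation p = 0.0625, adjusted over the 3 neighbouring pairs 0.0938). *Gja5* was above *Gjc1* in 6 of 6 libraries by 2.84 on the log2 scale (exact permutation p = 0.0312, the smallest possible, adjusted 0.0938). The first place depended on length. *Gja1* has 19 annotated transcripts whose merged exons span 12302 bases, against 5711 for the longest of them, and with the longest transcript as length *Gja1* came first at 59.1 CPM per kb and *Gja4* was next at 42.5 CPM per kb (mean log2 ratio of *Gja4* to *Gja1* -0.52, exact permutation p = 0.125). The places of *Gja5*, at 22.6 CPM per kb, and *Gjc1*, at 2.83 CPM per kb, were the same with this length.

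**Figure D4:**
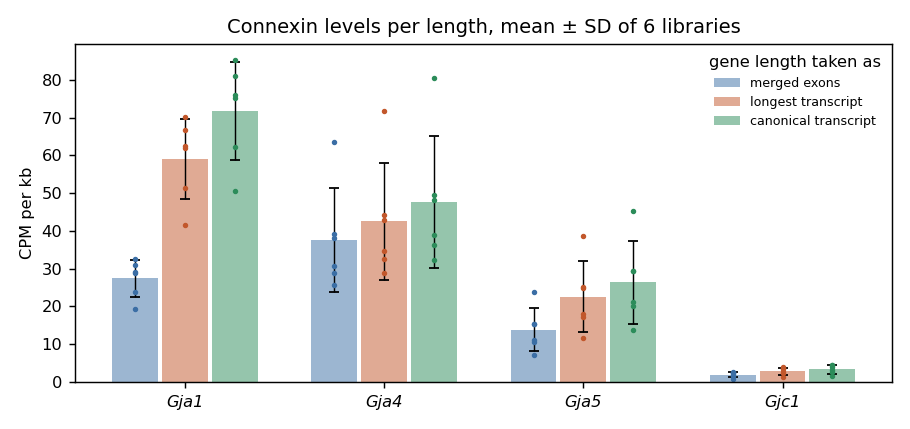
CPM per kb (y axis, from 0) of each vascular connexin with 3 definitions of gene length, as bars for the mean, error bars for the SD and dots for the 6 libraries. *Gja4* is highest with merged exons and *Gja1* with either single transcript, whereas *Gjc1* is lowest with all 3.

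The other members of the family were hardly detected. Of the 16 remaining connexin genes, 8 had no count in any library, 3 had too few counts to be tested, and 5 were tested with at most 64 counts, or 1.43 CPM, in any library. *Gja10* had 64, 0 and 11 counts in *ControlΔEC* replicates 1, 2 and 3 and none in *Wt1KOΔEC*, so the libraries overlapped at 0. Its control mean was 6.71 times the floor of 3 counts in an average *Wt1KOΔEC* library, and 2.12 times without *ControlΔEC* replicate 1. This does not bound a genotype difference, since most counts came from that library. The 95% interval of the ratio reached 0.621 (adjusted p = 0.341, edgeR quasi-likelihood). *Panx1*, which encodes a pannexin that forms channels in the plasma membrane and is not related to connexins by sequence, was at 14.98 ± 6.35 CPM in *ControlΔEC* and 19.3 ± 3.90 CPM in *Wt1KOΔEC* (SD, n = 3; log2 fold change 0.37, adjusted p = 0.763, edgeR quasi-likelihood). Together the 16 genes summed to 0.365 to 2.88 CPM in a library.

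Of the 15 connexin partners tested, which include scaffold, trafficking and kinase genes, none passed the edgeR test. With DESeq2, which called 4.83% of all genes, 2 passed. These 2 were lower in every *Wt1KOΔEC* library, beside 8.97% of all genes. *Ccn3*, which encodes a matricellular protein that binds connexin 43, was at 24.7, 5.25 and 27.6 CPM in *ControlΔEC* and at 3.22, 4.16 and 4.08 CPM in *Wt1KOΔEC* replicates 1, 2 and 3 (log2 fold change -2.33, adjusted p = 0.180 with edgeR and 0.00287 with DESeq2). *Cav1*, the main coat protein of caveolae, was at 3607, 1886 and 3505 CPM and at 1733, 1758 and 1859 CPM (log2 fold change -0.75, adjusted p = 0.243 with edgeR and 0.0383 with DESeq2). *ControlΔEC* replicate 2 was the control nearest to *Wt1KOΔEC* for both genes. The mural cell markers, at 377, 188 and 378 CPM in *ControlΔEC* replicates 1, 2 and 3 and at 156 to 172 CPM in *Wt1KOΔEC*, were likewise lowest in replicate 2 among the controls and lower in *Wt1KOΔEC*, and their part in these levels was not tested. *Rab20*, a small GTPase linked to connexin trafficking, had a log2 fold change of -0.76 with overlapping libraries (adjusted p = 0.511). The median over the partners was -0.03. The study had reported *Cav1* as lower in these same libraries, so its value is not independent evidence.

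Among 22 tested regulators of vascular connexins or of arterial identity, which include Notch pathway, SOX, KLF and cardiac T-box genes, none passed the edgeR test and 3 passed with DESeq2, which called 4.83% of all genes. An unadjusted p under 0.05 was seen for 3 that were higher and 2 that were lower in *Wt1KOΔEC*, beside 5.96% and 7.12% of all genes. *Hes1*, a Notch target gene, was at 48.2 ± 4.90 CPM in *ControlΔEC* and 84.5 ± 7.06 CPM in *Wt1KOΔEC* (SD, n = 3; log2 fold change 0.81, adjusted p = 0.114 with edgeR and 0.000261 with DESeq2). *Gata4*, a cardiac transcription factor gene, had a log2 fold change of 1.60 (adjusted p = 0.120 with edgeR and 0.000465 with DESeq2). *Jag2*, a Notch ligand gene, had one of -0.80 (adjusted p = 0.199 with edgeR and 0.0106 with DESeq2). Of these regulators 7 of 22 did not overlap between genotypes, beside 19.3% of all genes, and their median log2 fold change was 0.06. The study had reported *Hes1*, *Gata4* and *Jag2* as changed in these same libraries, so their values are not independent evidence.

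*Gja4* and *Gja5* belong with arterial genes, of which 17 others were tested. None passed the edgeR test and 4 passed with DESeq2, which called 4.83% of all genes. At an unadjusted p under 0.05, 5 were lower and 2 higher in *Wt1KOΔEC*, where 7.12% and 5.96% of all genes were. Negative fold changes were seen for 13 of 17, beside 52% of all genes, with a list median of -0.27. *Tox2* had a log2 fold change of -1.12 (adjusted p = 0.108 with edgeR and 7.84e-07 with DESeq2). *St8sia6* had one of -1.55 (adjusted p = 0.110 with edgeR and 7.54e-05 with DESeq2). Both were larger than those of *Gja4* and *Gja5* and without overlap between genotypes. *Igfbp3* had a log2 fold change of 1.01 in the other direction (adjusted p = 0.134 with edgeR and 0.000966 with DESeq2). This arterial list and the venous list after it mostly follow genes that the study examined in these libraries. Neither list is independent evidence of a direction. Of the 10 genes listed as venous, *Apln* among them, 0 passed the edgeR test and the median was 0.00. *Apln* alone passed with DESeq2, which called 4.83% of all genes. The study names lower *Apln* apart from the venous markers it found higher, so this pass is not read as a venous change. In every *Wt1KOΔEC* library 2 of the 10 were higher and 2 lower than in any control, beside 10.3% and 8.97% of all genes. *Apln*, a vascular peptide gene, had a log2 fold change of -0.9997 (adjusted p = 0.114 with edgeR and 0.000492 with DESeq2). *Nr2f2*, a venous transcription factor gene, had one of 0.91 (adjusted p = 0.258 with edgeR and 0.0531 with DESeq2). *Emcn*, which encodes endomucin, had one of 0.41 (adjusted p = 0.332 with edgeR and 0.126 with DESeq2). The libraries did not overlap for any of these genes, with *Apln* lower and *Nr2f2* and *Emcn* higher in *Wt1KOΔEC*.

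The genes whose log2 CPM was most like that of each connexin over the 6 libraries were sought among 8457 genes of at least 10 CPM. For *Gja1* they were *Slc16a1*, a monocarboxylate transporter gene, *Ccn2*, which encodes connective tissue growth factor, and *Ndufb11*, a mitochondrial complex I gene, with Pearson's r of 0.995, 0.992 and 0.991. *Ccn2* was at 80.2, 43.4 and 133 CPM in *ControlΔEC* and at 154, 149 and 221.5 CPM in *Wt1KOΔEC* replicates 1, 2 and 3, the same order of libraries as *Gja1*. For *Gja4* they were *Acp2*, a lysosomal phosphatase gene, *Orai3*, a calcium channel gene, and *Rasa4*, with r of 0.990, 0.985 and 0.984. For *Gja5* they were *Plxna2*, a semaphorin receptor gene, *Cdyl2* and the macrophage marker *Cd68*, with r of 0.990, 0.987 and 0.983. *Plxna2* was at 81.7, 120.1 and 68.0 CPM in *ControlΔEC* and at 65.0, 87.2 and 54.1 CPM in *Wt1KOΔEC* replicates 1, 2 and 3. *Cd68* was at 35.3, 51.5 and 23.3 CPM in *ControlΔEC* and at 22.2, 27.9 and 14.8 CPM in *Wt1KOΔEC* replicates 1, 2 and 3. For *Gjc1* they were *Thap12*, *Rbm33* and *Tnrc6a*, a gene of microRNA-mediated silencing, with r of 0.978, 0.977 and 0.975. These values describe 6 libraries that share their normalization, and 97 genes for *Gja1*, 32 for *Gja4*, 37 for *Gja5* and 15 for *Gjc1* reached an r above 0.95. Without *ControlΔEC* replicate 2 the named genes had an r of 0.951 or more. They had been chosen by r over libraries that include the remaining ones, so this is no separate support. Which genes ranked highest depended on the measure. With values centred within genotype, 1 of the 3 genes was kept for *Gja1*, 0 for *Gja4*, 1 for *Gja5* and 0 for *Gjc1*. With Spearman's rho, 2 of the 3 were kept for *Gja1* and for *Gja4* and 1 for *Gja5* and for *Gjc1*.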

How the data were processed

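Low-input RNA-Seq (SMART-seq2, Nextera XT, paired-end) had been done on 3 *ControlΔEC* and 3 *Wt1KOΔEC* libraries. The authors aligned reads with STAR 2.7.8a and quantified genes with RSEM 1.3.0, which gave the expected counts that were deposited, all of them whole numbers and not normalized. The methods name GRCm39 with GENCODE vM27 and the submitters' notes name GRCm38. Gene positions and lengths were therefore taken from GENCODE vM39 on GRCm39 by Ensembl ID, which matched 54749 of 55416 genes. The comparison was made with edgeR 4.0.16 in R 4.3.3 (TMM, quasi-likelihood F test) on genes reaching 10 counts in 2 or more libraries. Genes were called at a Benjamini-Hochberg adjusted p under 0.05 over all genes tested and an absolute log2 fold change above 0.58. DESeq2 1.42.0, limma-voom (limma 3.58.1), the likelihood ratio test, other normalizations and filters, the replicate number as a block and each library left out in turn were alternatives. Levels per kb used Python 3.11.15 and exact sign-flip permutation tests over libraries.

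The connexins and all lists were chosen with earlier results of these data known. Beside the connexins, the text names other connexins and pannexins of at least 1 CPM in a genotype, the 3 genes of the smallest unadjusted p in each related list, the highest gene of marker lists used, called genes of the lists, and the 3 genes most like each connexin. *Gja10* was added after its values were seen. The fit was tested on simulated data.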

Additional observations from a re-analysis of the deposited data

How the results depend on the processing

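None of the connexins passed the test under any of 12 alternatives that kept all libraries, or with any library left out. *Gja1* ranged from 0.22 to 0.39 on the log2 fold change scale (adjusted p 0.261 to 0.627), *Gja4* from -0.54 to -0.28, *Gja5* from -0.76 to -0.58 and *Gjc1* from -0.57 to -0.42, and library totals alone, without TMM, gave the lowest value of each. With 1 library left out the ranges were 0.23 to 0.52 for *Gja1*, -0.63 to 0.048 for *Gja4*, -0.92 to -0.26 for *Gja5* and -0.74 to -0.15 for *Gjc1*, and *Gja4* changed sign without *ControlΔEC* replicate 2 (0.048). Of all genes, 12 were called with edgeR's quasi-likelihood test, 767 with DESeq2, 432 with the likelihood ratio test, 296 with no filter on low counts and 113 with at least 10 counts in every library, and from 2 (without *Wt1KOΔEC* replicate 3) to 37 (without *ControlΔEC* replicate 3) with 1 library left out. In the 6 lists of other connexins, pannexins, partners, regulators, arterial and venous genes the number called was 0, 10 with DESeq2, 8 with the likelihood ratio test, 7 with no filter and 4 with the stricter filter, and 0 to 3 with 1 library left out. Deviations of same-numbered libraries correlated at 0.0664, -0.00891 and 0.0368 over all genes tested, which cannot exclude that replicate numbers paired the libraries. With the replicate block 5 genes were called, *Gja1* was at 0.38, *Gja4* at -0.28, *Gja5* at -0.60 and *Gjc1* at -0.50. For *Gja5* the block lowered the SE from 0.33 to 0.15 and the adjusted p from 0.497 to 0.245 (edgeR quasi-likelihood). For *Gjc1* it raised the SE from 0.37 to 0.40. With the longest transcript as length the mean log2 ratios per kb were -0.52 for *Gja4* over *Gja1*, 1.47 for *Gja1* over *Gja5* and 2.98 for *Gja5* over *Gjc1*, the last 2 at an adjusted exact permutation p of 0.0469. With the Ensembl canonical transcript, added after the data had been seen, they were -0.64, 1.52 and 2.97. The cause of these shifts was not tested beyond the lengths themselves. The precision that 3 libraries against 3 gave is that of the 95% intervals, such as 0.981 to 1.69 for the fold of *Gja1*.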

Other observations

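Levels were also expressed per 1000 CPM of the 10 summed endothelial markers, which sets each connexin against the endothelial RNA of its own library. On this scale *Gja1* was at 39.0, 38.2 and 49.7 in *ControlΔEC* and at 55.0, 51.5 and 66.6 in *Wt1KOΔEC* replicates 1, 2 and 3. The genotypes did not overlap on this scale either (log2 difference of the means 0.45). These are the same *Gja1* counts, so this is not a second observation. Of the 10 endothelial markers, 7 had negative log2 fold changes, beside 52% of all genes. The share of all genes that separate on this scale was not computed. *Gja4* was at 13.6 ± 7.52 and 10.7 ± 1.37, *Gja5* at 14.8 ± 7.12 and 9.80 ± 3.12, and *Gjc1* at 3.10 ± 0.636 and 2.44 ± 1.01 in *ControlΔEC* and *Wt1KOΔEC* (SD, n = 3), each with overlapping libraries.

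Markers of other endothelial populations differed between the libraries as well. The 4 lymphatic endothelial markers summed to 63.8 to 109.8 CPM in *ControlΔEC* and 183 to 275 CPM in *Wt1KOΔEC*, led by *Ccl21a* at 70.3, 40.4 and 37.0 CPM and at 193, 195 and 125 CPM in replicates 1, 2 and 3 (log2 fold change 1.80, adjusted p = 0.0967, edgeR quasi-likelihood). The 6 endocardial markers, led by *Nfatc1*, summed to 286 to 401 CPM and 363 to 468 CPM. These sums overlapped, while 6 of 6 of the markers had positive log2 fold changes (median 0.83). Without overlap between genotypes, 3 of 6 were higher in *Wt1KOΔEC*, beside 10.3% of all genes. At an unadjusted p under 0.05, 4 of 6 were higher in *Wt1KOΔEC* and none lower, beside 5.96% and 7.12% of all genes. None passed the edgeR test after adjustment and 3 passed with DESeq2, which called 4.83% of all genes. *Nfatc1* itself was at 185 ± 62.4 CPM and 219 ± 20.5 CPM (SD, n = 3; log2 fold change 0.25, adjusted p = 0.748 with edgeR). Their part in the connexin levels was not tested.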
